A study of Mus musculus with 8 samples.

Results

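A stretch of 141 bases on mouse chromosome 16 was covered by many overlapping small RNA names in sperm, and it is described here name by name. Each piRNA name of a deposited table was kept once, at its first locus when loci are sorted by chromosome (as text) and start, and the names whose kept locus fell in the window around 18.53 Mb of chromosome 16 were taken. By this rule the locus held 407 of 13450 names (3.03%) in the table of control and MC-LR libraries and 395 of 17375 names (2.27%) in the table of shRNA libraries. In all, 432 different names were found, 370 of them in both tables. The 8 libraries came from sperm of Balb/c mice at post natal month 8, in 4 groups of 2 libraries (A and B). In the first table the agent was either control or MC-LR, the usual abbreviation of microcystin-LR, a toxin of cyanobacteria. In the second table the shRNA was either a negative control or one against Hsp90aa1, which encodes the inducible cytosolic form of the chaperone Hsp90. The labels give neither a dose nor the cells that received the shRNA, and do not say whether libraries A and B are different animals, so every p-value below measures only the spread between libraries, which may be technical. The tables hold small RNA names only, so Hsp90aa1 messenger RNA and cell type markers were not measured here.

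PIWI-interacting RNAs (piRNAs) are small RNAs of the germ line that guide PIWI proteins to transposon and other transcripts, and many of them begin with a uridine. The 18S ribosomal RNA (rRNA) is the RNA core of the small ribosomal subunit, is cut from a long precursor and is among the most abundant RNAs of a cell, so its fragments enter small RNA libraries readily. A small RNA that matches an rRNA can be listed in a piRNA catalogue by its length alone, and the listing does not show that it was bound by a PIWI protein.

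All members lay on the minus strand of chr16:18533190-18533330 (mm10). This stretch is in an intron of Gnb1l, a gene of unclear function for a G protein beta subunit-like protein, which is annotated on the plus strand at chr16:18498713-18566679. The members were therefore antisense to Gnb1l, they overlapped 0 of its exons, and the nearest exons began 5062 bases after and ended 34050 bases before the locus. Of the 407 names, 399 were also listed on the plus strand of chromosome 17, as were 383 of the 395 names of the shRNA table. Their loci there filled chr17:39846353-39846491, a stretch of 139 bases, in exact mirror order, and their values were identical at both places for all 399 and all 383. That stretch is the beginning of the 1849 bases of an rRNA model (GENCODE M21 transcript CT010467.1, chr17:39846353-39848201, annotated on the minus strand) that RefSeq lists as the 18S pseudogene Rn18s-rs5. The small RNAs follow the plus strand of chromosome 17, which reads as 18S rRNA from its 5′ end. Reads of these names cannot be assigned to chromosome 16, to chromosome 17 or to the working rRNA genes, and positions below are counted from 1 at the 5′ edge of the locus in the direction of the small RNAs.

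The sequences below were read from the GENCODE M21 transcript of chromosome 17 (GRCm38, the assembly also called mm10), 5′ to 3′, because nearly all members are listed there too. The first line is the whole shared stretch and shows where the fragments come from. The lines after it are the most abundant name, names that share its 5′ end and differ in length, the 3 names with the largest limma falls under MC-LR, and the abundant names of the rest of the locus. Capitals mark positions 1 to 18, which are the most abundant name itself.
positions 1 to 139: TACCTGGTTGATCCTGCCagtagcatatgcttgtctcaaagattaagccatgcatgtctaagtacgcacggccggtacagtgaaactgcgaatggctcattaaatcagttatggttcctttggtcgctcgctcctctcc
piR-mmu-49083875 (1 to 18): TACCTGGTTGATCCTGCC
piR-mmu-8176039 (1 to 17): TACCTGGTTGATCCTGC
piR-mmu-50949321 (1 to 19): TACCTGGTTGATCCTGCCa
piR-mmu-48852807 (1 to 34): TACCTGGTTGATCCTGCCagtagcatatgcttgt
piR-mmu-8607433 (7 to 34): GTTGATCCTGCCagtagcatatgcttgt
piR-mmu-4696132 (7 to 35): GTTGATCCTGCCagtagcatatgcttgtc
piR-mmu-56225959 (7 to 36): GTTGATCCTGCCagtagcatatgcttgtct
piR-mmu-4633843 (61 to 90): agtacgcacggccggtacagtgaaactgcg
piR-mmu-11118466 (69 to 93): cggccggtacagtgaaactgcgaat
piR-mmu-11007678 (69 to 94): cggccggtacagtgaaactgcgaatg
piR-mmu-5910650 (79 to 98): agtgaaactgcgaatggctc
piR-mmu-49959000 (84 to 101): aactgcgaatggctcatt
piR-mmu-1499835 (113 to 139): ggttcctttggtcgctcgctcctctcc
The 139 bases have a GC content of 48.2%. Names listed only on chromosome 16 numbered 8 in the MC-LR table and 12 in the shRNA table, and 6 and 10 of them ran past position 139, to position 141 at most.

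Members were 17 to 34 nt long, with a median of 26 nt in both tables. A thymine (uridine in the RNA) was the first base of 116 of 399 names (29.1%) and of 107 of 383 names (27.9%), where 29.5% of the bases of the stretch are T. Weighted by the mean level in RPM (reads divided by the library total and scaled to 1 common size), the names that begin with T held 41.5% of the level in the MC-LR table and 82.5% in the shRNA table. Most of that weight was the single 18-nt name at position 1. In the rest of the 18S copy on chromosome 17, 27.0% of 4810 names and 24.97% of 5708 names began with T. In the MC-LR comparison 257 pairs of nested names had the same 5′ end and 1 nt of difference in length. The longer name was the higher in 138 of them, so a short name did not simply contain the reads of the longer one. Such names still share sequence, so this does not make them independent measurements.

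Depth set the precision of single names. Library totals, recovered from the smallest step of the RPM values, ranged from 4960467 to 14634370 reads. A count of 3 reads corresponded to 0.205 to 0.605 RPM, and the median member had 169 reads in control A and 47 reads in control B, against 17 and 21 reads under MC-LR. In the shRNA table it had 53 and 75 reads in the negative controls but 8 and 4 reads in the Hsp90aa1 libraries, where 77 of 395 members had 3 reads or fewer in both libraries. These limits cover counting error only, and whether the reads carried molecular identifiers is not known here.

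The members fell into 3 runs of 5′ ends. Under the MC-LR comparison 25 names began at positions 1 to 13, 228 at positions 49 to 85 and 154 at positions 97 to 120. With the shRNAs the numbers were 24, 224 and 147. No listed name covered positions 45 to 48. The first run, which is the 5′ end of the 18S sequence, had sums of 3839 RPM in control A, 1351 RPM in control B, 922 RPM in MC-LR A and 1167 RPM in MC-LR B. With the shRNAs it summed to 5912 and 19313 RPM in the negative-control libraries and to 62.0 and 16.99 RPM with the Hsp90aa1 shRNA. This run held the smallest number of names, but its share of the locus reached 83.9% in negative-control shRNA B and was 6.93% in Hsp90aa1 shRNA B.

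The middle run had sums of 6259 RPM in control A and 5979 RPM in control B, against 1535 and 1563 RPM under MC-LR. It summed to 2266 and 2660 RPM with the negative-control shRNA and to 223 and 142 RPM with the Hsp90aa1 shRNA. The last run summed to 2039 and 1664 RPM in the controls and 513 and 577 RPM under MC-LR, and to 909 and 1034 RPM against 122 and 86.4 RPM in the shRNA table. In both runs the 2 libraries of each group differed by a smaller ratio than in the first run, and every library of the exposed or Hsp90aa1 group was below both libraries of its control group. The 5′ ends of these names were spread: position 61 was the most used in the MC-LR table apart from position 1, with 10 names and 6.98% of the locus without the 18-nt name. In the shRNA table this was position 113, with 9 names and 4.63%. Position 1 without its 18-nt name had 6 names and 2.16% in the MC-LR table.

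**Figure D1:**
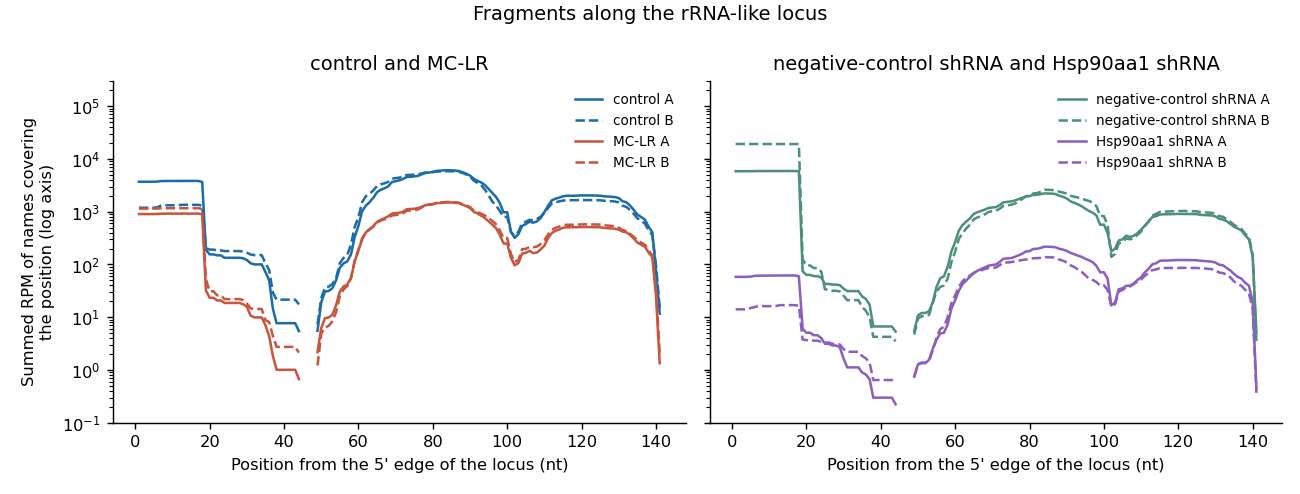
Summed RPM (log axis) of all members that cover each position, counted from the 5′ edge of the locus in nt, with 1 line per library (solid A, dashed B). The lines drop between positions 18 and 19, break at positions 45 to 48 where no name is listed, and peak again near position 84, where control A reached 6117 RPM and Hsp90aa1 shRNA B 138 RPM.

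One name stood far above the others. piR-mmu-49083875, of 18 nt at chr16:18533313-18533330, had 3468 RPM in control A and 1090.4 RPM in control B, against 862 and 1064 RPM in the MC-LR libraries. Control B was thus only slightly above MC-LR B, control A was 3.18 times control B, and the groups did not overlap. The name made up 28.6% and 12.1% of the locus in the controls and 29.04% and 32.2% under MC-LR. Its mean was 2279 ± 1681 RPM in the controls and 963 ± 142 RPM under MC-LR (SD, n = 2 each). The limma log2 fold change was -1.02 ± 0.49 (SE) and did not pass the threshold of 0.05 (adjusted p = 0.0740). The size rested on control A: limma gave -0.19 without it (adjusted p = 0.555) and -1.86 without control B (adjusted p = 2.57e-08). A fit that leaves 1 library in a group, here and below, assumes that this library varies like those of the other group. By the means the name was 2.37-fold lower, 1.13-fold without control A and 3.60-fold without control B. With all libraries edgeR with library totals gave -1.24 (adjusted p = 0.0314), and edgeR with trimmed-mean (TMM) factors, which scale within the list, gave 0.41 (adjusted p = 0.735).

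In the shRNA table piR-mmu-49083875 had 5798 and 19044 RPM in negative-control A and B and 53.5 and 12.6 RPM in Hsp90aa1 A and B. Both libraries with the Hsp90aa1 shRNA were far below both negative controls, while negative-control B was 3.28 times A and Hsp90aa1 A was 4.23 times B. The name held 63.8% and 82.8% of the locus in the negative controls and 13.2% and 5.16% with the Hsp90aa1 shRNA. It fell from 12421 ± 9367 to 33.1 ± 28.9 RPM (SD, n = 2 each), 375-fold by the means, with a log2 fold change of -8.59 ± 0.91 (SE, limma adjusted p = 0.000582). The call held without each library in turn, but the size moved with each: by the means it was 175-fold without negative-control B, 232-fold without Hsp90aa1 B, 576-fold without negative-control A and 982-fold without Hsp90aa1 A. With TMM factors the fold change was -5.85 on the log2 scale (edgeR adjusted p = 0.0409).

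**Figure D2:**
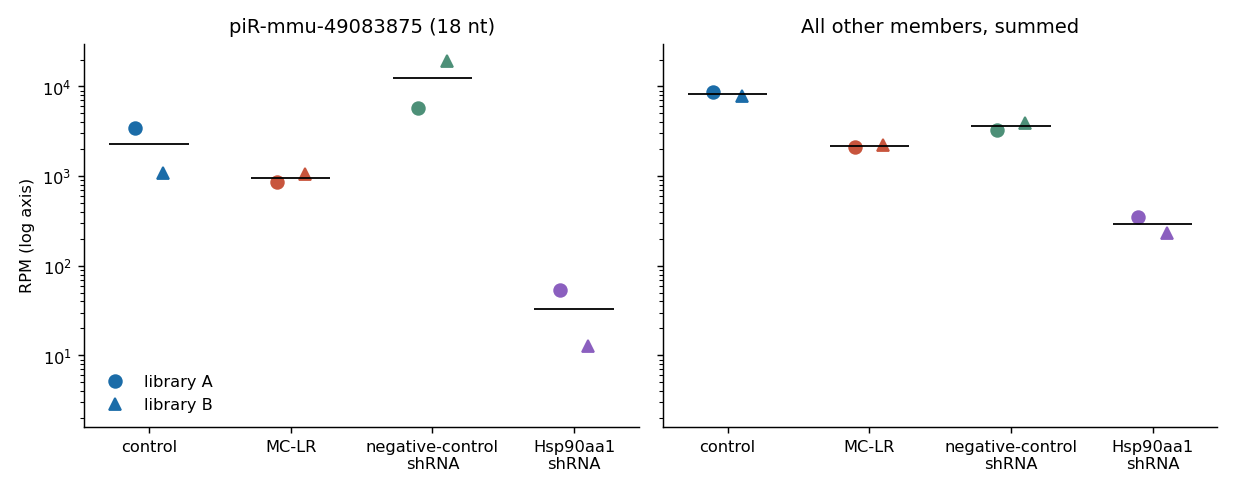
RPM (log axis) of the 18-nt name piR-mmu-49083875 (left) and of all other members summed (right) in each library, with circles for library A, triangles for library B and lines for the group mean. The 18-nt name spans 12.6 to 19044 RPM and its 2 libraries differ in 3 of the groups, whereas the other members stay within 7904 to 8669 RPM in the controls and 3289 to 3963 RPM in the negative controls.

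The names that share the 5′ end of the 18-nt name did not all follow it. piR-mmu-8176039, 1 nt shorter, had 182 RPM in control A, 53.6 RPM in control B, 27.3 and 50.6 RPM under MC-LR, 39.4 and 144 RPM in the negative controls and 2.40 and 0.554 RPM with the Hsp90aa1 shRNA. The high library was therefore control A in the one table and negative-control B in the other, as for the 18-nt name. Its log2 fold change was -1.39 ± 0.54 under MC-LR (SE, limma adjusted p = 0.0395). That call was lost without control A (-0.52, adjusted p = 0.161) and without MC-LR A (-0.95, adjusted p = 0.174), and TMM factors gave 0.05. With the Hsp90aa1 shRNA it fell by 5.06 on the log2 scale (SE 0.69, limma adjusted p = 0.000585; with TMM factors -3.21, adjusted p = 0.336).

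piR-mmu-50949321, 1 nt longer than the 18-nt name, had 33.6 RPM in control A and 15.9 RPM in control B, against 8.58 and 21.3 RPM under MC-LR. Here the groups overlapped, and the limma log2 fold change was -0.72 ± 0.49 (SE, adjusted p = 0.170). In the shRNA table it had 11.3 and 28.7 RPM against 0.973 and 0.0923 RPM. It was chosen after its values were seen, as a neighbour of the 18-nt name.

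The longest name at this 5′ end, piR-mmu-48852807 of 34 nt, went the other way between libraries: it had 2.87 RPM in control A and 17.3 RPM in control B. It had 0.842 and 2.59 RPM in MC-LR A and B, so that control A was barely above MC-LR B. Its log2 fold change was -1.71 ± 0.63 (SE, limma adjusted p = 0.0329). The call was lost without control B (-0.59, adjusted p = 0.159) and without MC-LR A (-1.23, adjusted p = 0.0872). In the shRNA table this name had 3.50 and 1.42 RPM in the negative controls and 0.150 and 0.277 RPM with the Hsp90aa1 shRNA, a log2 fold change of -1.45 ± 0.32 (SE, limma adjusted p = 0.00213).

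Summed over the locus, the level was 12136 RPM in control A and 8994 RPM in control B, against 2969 and 3307 RPM in MC-LR A and B. The groups did not overlap, and the sum was 3.37-fold lower under MC-LR (10565 ± 2222 against 3138 ± 239 RPM, SD, n = 2 each). Without the 18-nt name it was 3.81-fold lower, with 8669 and 7904 RPM against 2107 and 2243 RPM. All other names of the table were 3.02-fold lower and the rest of the 18S copy 2.87-fold lower in the same libraries. As a share of all listed RPM the locus made up 3.19% and 2.55% in the controls and 2.38% and 2.82% under MC-LR, so these shares overlapped. Set against the rest of the 18S copy, the whole locus equalled 12.7% and 10.5% in the controls. Under MC-LR it equalled 8.97% and 11.05%, so these values overlapped. Without the 18-nt name, a removal chosen after seeing the data, the locus equalled 9.09% and 9.23% in the controls. The values under MC-LR were then 6.37% and 7.498%, which did not overlap with the controls. The two-sided exact permutation test of the sum gave p = 0.333, the smallest that 2 libraries against 2 allow.

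By limma over all names, 353 of the 406 members tested were lower under MC-LR, where 73.1% of all tested names were lower. None of the members was higher, where 2.37% of all tested names were, and all 406 fold changes were below 0. The remaining 53 did not pass. edgeR with library totals called 365 members lower, where 75.4% of all names were, and edgeR (either scaling) and DESeq2 also called 0 members higher. The 2 groups did not overlap and MC-LR was lower for 392 of 407 members, where this held for 92.6% of all names. The median log2 fold change was -1.50 for the members and -1.17 for all tested names. With TMM factors, which move the median of all names to 0.00, the median of the members was -0.29, and edgeR called 4 members lower and 0 higher, where 3.01% of all names were lower. With 1 library left out, the number of calls changed for the members and for all names. The median log2 fold change of the members then ranged from -1.61 (without control B) to -1.43 (without MC-LR A). For all tested names it ranged from -1.24 (without control B) to -1.19 (without MC-LR A).

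Of the abundant names of the middle run, the 3 that begin at position 69 fell more than the one that begins at position 61. piR-mmu-33110072, of 27 nt at chr16:18533236-18533262 and listed at no other locus, had 160.3 and 155 RPM in the controls and 21.04 and 19.8 RPM under MC-LR. Its 2 control libraries differed by a ratio of 1.04 and the fall was 7.71-fold by the means. piR-mmu-11007678, 1 nt shorter, had 157 and 141 RPM against 25.2 and 17.1 RPM, and piR-mmu-11118466, shorter by 1 nt more, had 130.2 and 119 RPM against 17.2 and 13.9 RPM. Their log2 fold changes ranged from -2.93 to -2.78, each lower by limma (adjusted p = 0.000243 to 0.000265). With TMM factors the values were -1.36 to -1.17, and the edgeR adjusted p was 0.0553 for piR-mmu-33110072, 0.106 for piR-mmu-11007678 and 0.05001 for piR-mmu-11118466, none past the threshold. piR-mmu-4633843, at positions 61 to 90, had 112 and 162 RPM against 29.3 and 30.6 RPM, a log2 fold change of -2.13 ± 0.35 (SE, limma adjusted p = 0.000780). With TMM factors its fold change was -0.54 (edgeR adjusted p = 0.538).

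By limma on log2(RPM + 1), the 3 largest falls under MC-LR were in the first run, at names that share position 7 as their 5′ end. By the group means piR-mmu-4411615 of the middle run, at positions 71 to 95, fell more (15.9-fold), as it did by edgeR with library totals (-3.96 on the log2 scale) and with TMM factors (-2.33). piR-mmu-56225959, of 30 nt, had 34.2 and 46.0 RPM in the controls and 2.19 and 3.20 RPM under MC-LR. piR-mmu-4696132, of 29 nt, had 19.1 and 24.4 RPM against 2.36 and 0.610 RPM. piR-mmu-8607433, of 28 nt, had 25.8 and 27.6 RPM against 2.02 and 2.90 RPM. In each the controls were far above both MC-LR libraries, which rested on 4 to 21 reads. The folds by means were 14.9, 14.7 and 10.9, and the limma log2 fold changes were -3.47 ± 0.36, -3.28 ± 0.41 and -3.01 ± 0.35 (SE, adjusted p = 0.000243 to 0.000267). These 3 names and piR-mmu-4411615 were the 4 members that stayed lower with TMM factors, where the 3 had log2 fold changes of -2.24, -2.24 and -1.78 (edgeR adjusted p = 0.00643, 0.0316 and 0.0254). Their sequences overlap and their 5′ end is the same, so they are not separate replicates of a change. In the shRNA table the highest of them, piR-mmu-56225959, had 4.84 and 3.21 RPM in the negative controls and 0.150 and 0.277 RPM with the Hsp90aa1 shRNA, a log2 fold change of -2.03 ± 0.31 (SE, limma adjusted p = 0.000618; with TMM factors -1.41, edgeR adjusted p = 0.473). The difference between its 2 effects, 1.44 ± 0.45, did not pass (SE, limma adjusted p = 0.110).

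The share of members called lower under MC-LR differed by length. Of the tested members of 17 to 20 nt, 27 of 45 were lower and 18 did not pass. Of those of 21 to 24 nt 88 of 94 were lower, of 25 to 28 nt 122 of 134, of 29 to 32 nt 102 of 110, and of 33 to 34 nt 14 of 23. Among tested names outside the locus the shares were also lowest in the shortest and the longest class, at 49.1% of 827 names of 17 to 20 nt and 56.9% of 578 names of 33 to 35 nt. They were 74.3%, 77.6% and 72.5% in the 3 classes between, so this order by length was not particular to the members. The shortest and the longest members were also those whose control libraries differed most, as given with the library comparison. Median log2 fold changes ran from -1.14 at 17 to 20 nt to -1.66 at 25 to 28 nt, and with TMM factors from 0.04 to -0.39 in those length classes.

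With the shRNAs the sum over the locus was 9087 and 23007 RPM in negative-control A and B and 406 and 245 RPM in Hsp90aa1 A and B. The groups were far apart, and the sum was 49.3-fold lower with the Hsp90aa1 shRNA (16047 ± 9843 against 326 ± 114 RPM, SD, n = 2 each). The size rested on the 18-nt name and on negative-control B: without negative-control B the sum was 27.9-fold lower, and without the 18-nt name it was 12.4-fold lower (3626 ± 477 against 293 ± 85.1 RPM). All other names of the table were 7.12-fold lower and the rest of the 18S copy 8.12-fold lower. The share of all listed RPM was 3.28% and 7.13% in the negative controls and 0.832% and 0.777% with the Hsp90aa1 shRNA, so it did not overlap. The locus without the 18-nt name equalled 5.84% and 6.76% of the rest of the 18S copy in the negative controls and 4.22% and 4.01% with the Hsp90aa1 shRNA. The exact permutation test of the sum again gave p = 0.333, the smallest possible.

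All 386 tested members of the shRNA table were lower by limma, where 99.5% of all tested names were, so the count does not set the members apart. edgeR with library totals also called all 386, where 99.1% of all names were lower. The other 9 members did not reach the minimum mean of 1 RPM in either group. The groups did not overlap for 395 of 395 members, where 99.8% of all names did not. The median log2 fold change was -2.08 for the members and -1.66 for all names. TMM factors moved these medians to -0.62 and -0.04, and then only the 18-nt name was lower, where 0.089% of all names were. With limma, edgeR (either scaling) and DESeq2 0 members were higher, where limma and edgeR found 0.219% of all names higher, and none had a limma fold change above 0.

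Short names were the most abundant ones after the 18-nt name. piR-mmu-49959000, of 18 nt at positions 84 to 101, had 57.9 and 207 RPM in negative-control A and B and 10.2 and 3.42 RPM in Hsp90aa1 A and B. piR-mmu-5910650, of 20 nt at positions 79 to 98, had 50.3 and 104 RPM against 7.33 and 1.20 RPM. Both were higher in negative-control B than in A and higher in Hsp90aa1 A than in B. Their log2 fold changes were -3.98 ± 0.75 and -4.10 ± 0.71 (SE, limma adjusted p = 0.00111 and 0.000859). With TMM factors these were -1.54 and -1.47 (edgeR adjusted p = 0.461 and 0.476). piR-mmu-49256187, of 21 nt at positions 78 to 98, was among the 3 largest falls, with 28.2 and 47.9 RPM against 1.80 and 0.369 RPM. Its log2 fold change was -4.27 ± 0.52 (SE, limma adjusted p = 0.000582), and -2.36 with TMM factors (edgeR adjusted p = 0.376).

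The abundant names of the last run varied less between libraries. piR-mmu-1499835, of 27 nt, had 48.8 and 54.5 RPM in the negative controls and 4.34 and 2.95 RPM with the Hsp90aa1 shRNA. piR-mmu-8136014 extends it by 1 base, to position 140, past the last position shared with chromosome 17, and had 51.4 and 62.7 RPM against 6.29 and 4.15 RPM. In both the groups were far apart and the negative controls differed by ratios of 1.12 and 1.22. The log2 fold changes were -3.52 ± 0.51 and -3.24 ± 0.53 (SE, limma adjusted p = 0.000604 and 0.000714). With TMM factors they were -0.996 (edgeR adjusted p = 0.488) and -0.63 (edgeR adjusted p = 0.658).

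**Figure D3:**
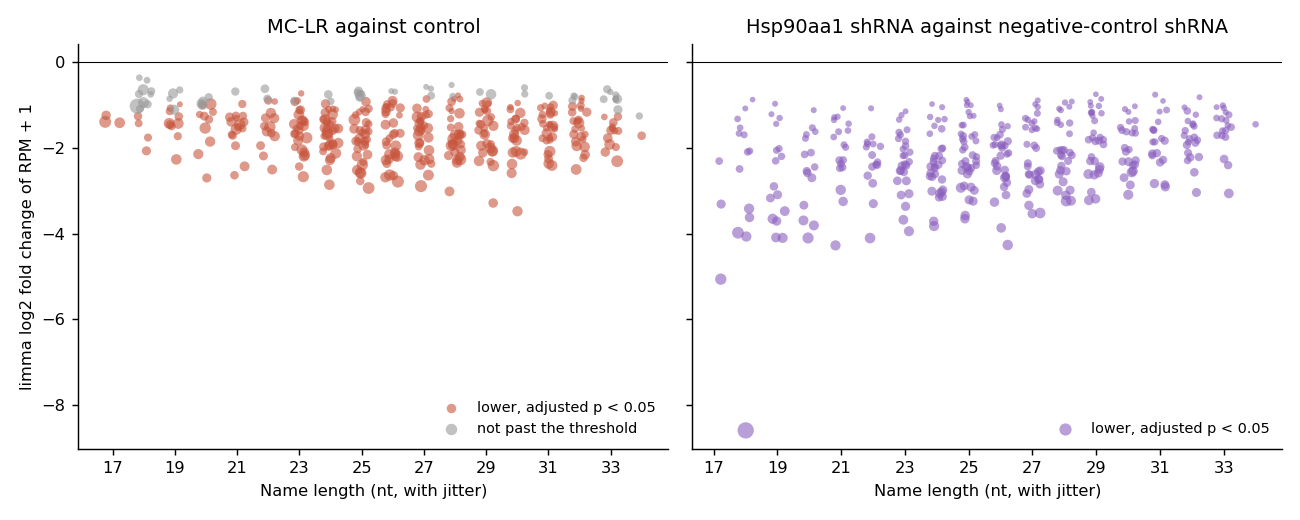
Limma log2 fold change of each tested member against its length in nt (1 point per name, jittered within a length, larger points for higher mean RPM), for MC-LR (left) and the Hsp90aa1 shRNA (right). Grey points, 53 in the left panel, did not pass the threshold and lie among the smaller changes. The point at -8.59 in the right panel is piR-mmu-49083875. The values rest on library totals, and with TMM factors 134 points on the left and 66 on the right lie above 0.

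The 2 libraries of a group differed by length, and in opposite order in the 2 control groups. In the controls, B minus A of log2(RPM + 1) had a median of -1.17 for members of 17 to 20 nt, with B higher for 0 of 45. The median rose to 1.46 for members of 33 nt or longer, with B higher for 23 of 23. In the negative controls it fell from 1.06, with B higher for 49 of 49, to -0.93, with B higher for 0 of 19. The MC-LR libraries differed less, with medians of -0.06 to 0.52 over single lengths. Over length classes the Hsp90aa1 shRNA libraries ran from -0.41 at 17 to 20 nt to 0.40 at 33 nt or longer.

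This pattern was shared with the rest of the tables. Names outside the locus had medians of -1.15 at 17 to 20 nt and 1.36 at 33 nt or longer in the controls, and of 0.99 and -1.13 in the negative controls. The mean length of the members, weighted by RPM, was 23.1 nt in control A and 25.8 nt in control B, and 23.5 and 23.0 nt in MC-LR A and B. It was 20.9 and 19.0 nt in the negative controls and 24.2 and 27.0 nt with the Hsp90aa1 shRNA. Names of 17 to 20 nt held 39.1% of the locus in control A, 17.9% in control B and 87.96% in negative-control B. What part these library differences have in the comparisons of short names was not tested. Restricted to members of 20 nt or longer, the sum was 3.92-fold lower under MC-LR (7704 ± 151 against 1968 ± 44.3 RPM) and 11.3-fold lower with the Hsp90aa1 shRNA (3033 ± 51.8 against 268 ± 65.1 RPM, SD, n = 2 each). Within these sums the control libraries still differed by length, in opposite directions. Controls A and B had 2316 and 1551 RPM at 21 to 24 nt, but 1650 and 2391 RPM at 29 to 32 nt. Negative controls A and B had 714 and 961 RPM, but 826 and 574 RPM, in these classes.

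**Figure D4:**
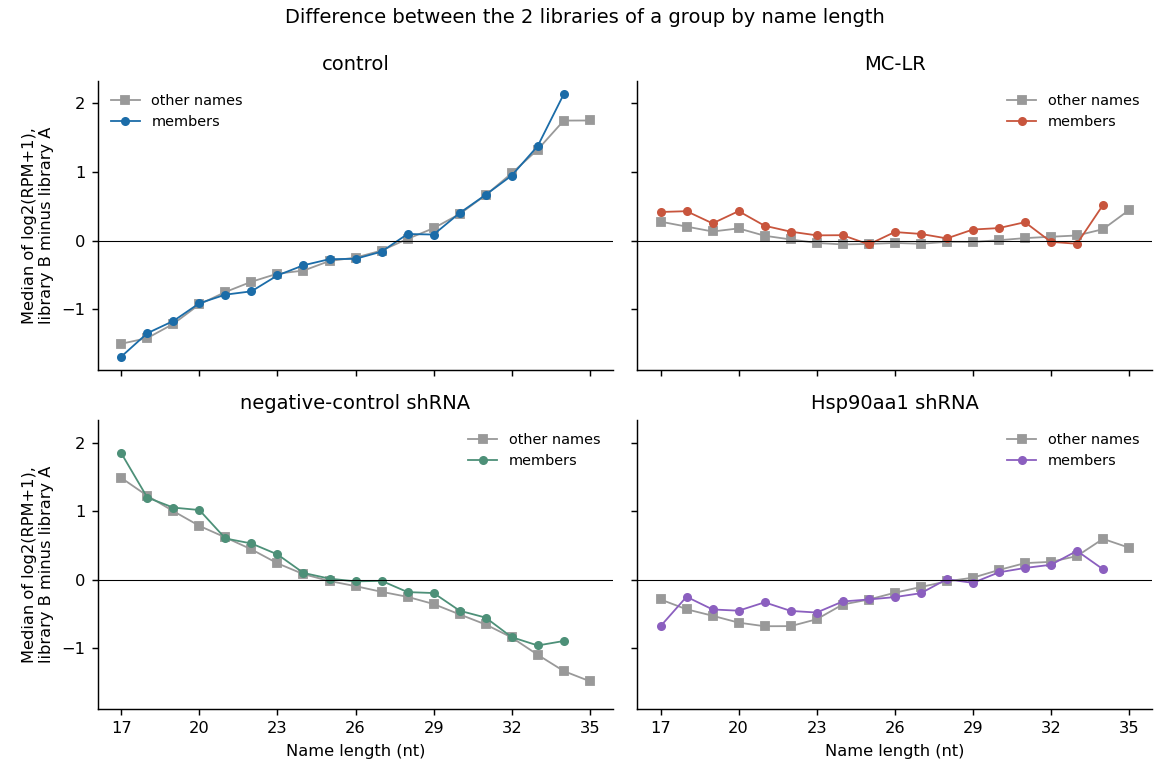
Median of log2(RPM + 1) in library B minus library A at each name length in nt, in the 4 groups, for the members (coloured circles) and all other names of the table (grey squares). Members and other names run together, upward with length in the controls and downward in the negative controls.

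The spread between libraries of a group was wide for some names. A ratio of 2 or more between the libraries was seen for 96 of 407 members in the controls and 65 under MC-LR, and for 90 and 187 of 395 members with the negative-control and the Hsp90aa1 shRNA. The widest in the controls was the 18-nt piR-mmu-49899975, with 3.35 RPM in A and 0.403 RPM in B, which is 49 and 2 reads. Its MC-LR values, 0.673 and 1.22 RPM, fell between them, and its log2 fold change of -0.36 ± 0.48 did not pass (SE, limma adjusted p = 0.472). It is 1 of the 15 members whose groups overlapped. Another 18-nt name, piR-mmu-49325480, had 3.55 and 0.605 RPM in the controls and 0.168 and 1.22 RPM under MC-LR, again overlapping (-0.75 ± 0.49, SE, limma adjusted p = 0.162). The widest ratio under MC-LR, 9.06, belonged to piR-mmu-2291980 of 27 nt, with 0.168 and 1.52 RPM, which is 1 and 10 reads. Its controls, at 2.19 and 3.23 RPM, lay above both, and its call (-1.10 ± 0.41, SE, limma adjusted p = 0.0340) was lost without MC-LR A (-0.54, adjusted p = 0.362).

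With the Hsp90aa1 shRNA the widest ratios were 15.4 for piR-mmu-6609069, of 22 nt, and 12.2 for piR-mmu-14788680 and piR-mmu-20377894, both of 26 nt. Each had 1 read in Hsp90aa1 B and 15 to 19 reads in Hsp90aa1 A. Their negative-control libraries lay between 5.75 and 13.0 RPM and above both Hsp90aa1 libraries. Their log2 fold changes were -2.64 ± 0.49, -3.10 ± 0.43 and -2.30 ± 0.40 (SE, limma adjusted p = 0.00108, 0.000593 and 0.000898).

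Last, the 2 effects were compared name by name for the 370 members listed in both tables, by a limma interaction over all names in both. The tables were deposited and scaled separately, which bears on every such value. The Hsp90aa1 shRNA effect was lower than the MC-LR effect for 3 members, where 1.49% of all names were, and higher for 1, where 0.189% were. piR-mmu-49083875 differed by -7.57 ± 1.11 on the log2 scale (SE, adjusted p = 0.0144). piR-mmu-1452598, of 26 nt at positions 73 to 98, differed by -2.31 ± 0.48 (adjusted p = 0.0471), and piR-mmu-1499835 by -2.24 ± 0.48 (adjusted p = 0.0495). piR-mmu-4411615, of 25 nt at positions 71 to 95, was the one in the other direction, at 1.77 ± 0.35 (adjusted p = 0.0435). It had 9.91 and 10.5 RPM in the controls and 0.673 and 0.610 RPM under MC-LR, but only 1.44 and 1.20 RPM in the negative controls against 0.225 and 0.0923 RPM with the Hsp90aa1 shRNA. The last 2 values are 3 reads and 1 read. With a pseudocount of 0.1 RPM its difference was 1.30 (limma adjusted p = 0.193). By edgeR with library totals it was 1.06 (edgeR adjusted p = 0.439). piR-mmu-1452598 and piR-mmu-4411615 were named after their values were seen. These calls did not hold with every library left out, and the number of calls over all names also changed with the library left out. For piR-mmu-49083875 the call was lost without MC-LR A (adjusted p = 0.150), MC-LR B (0.154) or negative-control shRNA B (0.0668), with differences of -8.57 to -6.57 over all 8 leave-outs. Those of piR-mmu-1452598 and piR-mmu-1499835 held by limma only without control A or Hsp90aa1 shRNA A, and reached adjusted p = 0.266 for both without MC-LR A. That of piR-mmu-4411615 held only without control A, and its adjusted p rose to 0.237 without MC-LR A. By edgeR with library totals 12 members were lower, where 3.45% of all names were, and 0 higher, where 0.0189% were. With TMM factors edgeR found 0 of the 370 members lower, where 0.104% of all names were, and 0 higher, where 0.0189% were. An unadjusted edgeR p under 0.05 in either direction was then reached by 31 of 370 members and 1000 of 10600 names. With the replicate letter as a block limma called 0 members and 0 of 10600 names in either direction. An unadjusted limma p under 0.05 was reached there by 55 members and 1791 names.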

How the data were processed

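The authors deposited 2 tables of RPM values (reads divided by the library total, on a common scale), with a locus, strand and piRNA name per line. The tools named in the submitters' processing notes are HTSeq 0.6.0, HISAT2 2.1.0 and Bowtie2 2.2.3, with build mm10. The step each tool did, the trimming, the RPM denominator and the listing rule were not given in the sources used here. All values (100%) were whole multiples of 1 read within 0.01, which gave reads and library totals. Starts, read as 0-based, are printed 1-based.

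Each table was fitted alone with limma 3.58.1 (trend, robust) in R 4.3.3 on log2(RPM + 1) and Benjamini-Hochberg adjustment at 0.05, so log2 fold changes understate those of low names. edgeR 4.0.16 (quasi-likelihood) and DESeq2 1.42.0 were run on the recovered reads as alternatives, since the deposited values are not counts. Names tested had a group mean of 1 RPM or more in either group. The script was tested on simulated data. Python 3.11.15 and pandas 2.3.3 made the sums and positions. The exact permutation tests were two-sided.

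Members and lists were chosen with earlier results of these data known. Names printed were, in each table, the 6 highest by mean RPM, the 3 largest falls past the threshold, the 3 largest ratios between 2 libraries of a group, the shortest and the longest. By limma with all libraries no member rose or went against the others. With TMM factors 134 members under MC-LR and 66 with the Hsp90aa1 shRNA had fold changes above 0. piR-mmu-33110072 and piR-mmu-8136014 are listed on chromosome 16 only, so their sequences are not printed. Replicate letters were checked as pairs by the correlation over names of the deviations of same-lettered libraries from their group means. The letters come from the titles and nothing in the labels says they mark a shared animal or batch.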

Additional observations from a re-analysis of the deposited data

Results flagged for a closer look

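By the test of the difference between the 2 effects (limma interaction, tables scaled separately), 3 of 370 members were lower with the Hsp90aa1 shRNA than under MC-LR and 1 was higher. Of all 10600 names tested, 1.49% were lower and 0.189% higher, so the counts do not set the members apart. Among the names printed by rule, piR-mmu-49083875 differed by -7.57 and piR-mmu-1499835 by -2.24 on the log2 scale. For piR-mmu-49083875 all 4 Hsp90aa1 and MC-LR libraries were below their controls, and the difference ranged from -8.57 (without Hsp90aa1 shRNA A) to -6.57 (without Hsp90aa1 shRNA B) when 1 library was left out, and the call was lost without MC-LR A, MC-LR B or negative-control shRNA B. The only member past the threshold in the opposite direction was piR-mmu-4411615, at 1.77.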

How the results depend on the processing

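Under MC-LR, 353 members were lower by limma, 7 with DESeq2, 4 with edgeR and TMM factors, and 8 of 8 when only names at 1 locus were taken. Leaving out 1 library gave 216 to 371. With the Hsp90aa1 shRNA the 386 became 3 with DESeq2, 1 with TMM factors and 12 of 12 at 1 locus, and 372 to 386 with a library left out. DESeq2 gave no adjusted p for 80 and 213 members. Over all tested names DESeq2 called 399 of 13271 lower under MC-LR and 122 of 16857 lower with the Hsp90aa1 shRNA. It gave no adjusted p for 3602 and 9151 of these names. For the difference between the 2 effects it called 61 of 10600 names lower and 39 higher. Under MC-LR, piR-mmu-49083875 changed sign with DESeq2 (0.46) and TMM factors (0.41), as did piR-mmu-8176039 (0.10 and 0.055) and, with TMM factors, piR-mmu-2291980 (0.046) and piR-mmu-49899975 (0.50). The 24 results of names chosen by rule (names counted once per comparison) had 292 values under alternatives. Of these values 251 kept direction and side of the threshold, 31 lost the call, 4 gained it and 6 changed sign. With TMM factors 5 of the 24 results kept both, 15 lost the call and 4 changed sign. The log2 ratio of the MC-LR sum, -1.75, was -0.14 as a share of listed RPM and -2.26 for names at 1 locus, with -1.95 to -1.52 when a library was left out. For the Hsp90aa1 shRNA, -5.62 became -2.69 as a share, -3.50 for names of 20 nt or longer, -3.22 at 1 locus and -3.63 without the 18-nt name, and -6.14 to -4.80 when a library was left out. The 3 members lower in the difference became 1 with DESeq2, 12 with edgeR and library totals, 0 with TMM factors, 10 without trend and robust fitting and 9 with a pseudocount of 0.1 RPM, and 0 to 21 with a library left out (21 without control A, 14 without Hsp90aa1 shRNA A). The 1 higher became 0 with DESeq2, edgeR (either scaling) and that pseudocount, and 0 to 1 with a library left out. The alternatives for the difference, the removal of the 18-nt name and the crossed letters were chosen after seeing the data. The cause of these changes was not tested.

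Whether the replicate letters pair the samples is not known. Same-lettered deviations correlated at 0.06 over all names in the MC-LR table and at -0.60 in the shRNA table. Each value rests on 2 pairs of libraries, so it cannot decide whether the samples are paired. With the replicate letter as a block 349 and 386 members were lower, 0 and 0 in the difference, and 386 with the letters crossed in the shRNA table. Low read numbers limit single names most with the Hsp90aa1 shRNA, where the median member had 8 and 4 reads.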
